A study of Mus musculus with 18 samples.

Results

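Translation initiation factors are the proteins that bring a ribosome to the start codon of an mRNA. The genes described here are those on the array whose symbol begins with Eif1 to Eif6, including the eIF2 kinases (Eif2ak) and the eIF4E binding proteins (Eif4ebp). They were picked by symbol alone and not by their values, though with earlier results of these data known. Of the 12393 genes that had a probe set of their own, 42 were such genes, with 103 probe sets among them, and for each gene the values are those of its brightest probe set on average over the 18 arrays. All 42 passed the filter on low values, which asked for a log2 signal of at least 4 on 3 arrays. Their lowest single reading was 4.01. Another 5 probe sets match several genes at once (Eif3j1 with Eif3j2, Eif4a3 with Gm5576, and Eif1a with its copies) and are not counted among the 42.

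Initiation proceeds in steps. The GTP-binding factor eIF2 carries the initiator tRNA to the small ribosomal subunit, eIF3 serves as a scaffold, and the eIF4 factors bind the cap at the mRNA's 5′ end and unwind it. The complex then scans to the start codon, GTP is hydrolysed, and the large subunit joins. Cells slow the process in 2 well-known ways. Kinases phosphorylate eIF2 and so block eIF2B, the factor that reloads it with GTP, while the eIF4E binding proteins keep the cap-binding factor from its partners. Resting T cells translate little mRNA, and activation through the T cell receptor is known to raise the supply of the machinery.

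The samples were CD4+ T cells, the helper T cells, of mice 6 to 8 weeks old. They came from wild-type (WT) mice or from ERRa-/- mice (ERRKO, here knockout), which lack the nuclear receptor ERRα encoded by Esrra. Groups had 3 arrays each, described by the submitters as independent biological replicates. Resting cells, WT and knockout, were taken straight from the animal. Stimulated cells, WT and knockout, had 12 h with 10 µg of antibodies to CD3 and CD28. The remaining groups were WT cells with 20 µM XCT790, an inverse agonist of ERRα, and WT cells with 20 µM compound A, a second ERRα inhibitor known here only by its code name. The protocol places both inhibitors in the 12 h stimulation, but the stimulation field of those 6 arrays says that the cells were not stimulated. Each inhibitor was therefore compared with stimulated and with resting WT cells. The groups carried no other allele or agent in the labels, which give neither the sex of the mice nor the kind of deletion.

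The values are log2 signals, and since every array had been given the same set of values, a change is one of rank against the rest of the array. Esrra was lower in knockout cells, at 4.34 to 4.65 resting against 5.25 to 5.51 in resting WT cells (limma adjusted p = 0.000216), but whether its probe set lies in the deleted part was not given in the sources used here. The T cell markers Cd3d, Cd3e, Cd3g and Cd4 were well above the floor on all arrays, with array means of 10.96 to 12.83. Resting cells also held signal of other cells. The 8 macrophage markers averaged 7.58 to 8.46 on WT resting and 7.98 to 9.54 on knockout resting arrays, and 2.34 to 2.90 on the other 12 arrays, where 7 or 8 of the 8 stayed under log2 4. The 5 B cell markers averaged 7.11 to 8.58 on resting and 4.69 to 5.99 on all other arrays. The 5 erythroid markers averaged 3.51 to 6.36 on WT resting and 8.12 to 9.88 on knockout resting arrays, and the 8 neutrophil markers 4.08 to 5.66 and 6.72 to 9.21. Both lists averaged at most 5.36 elsewhere. A control RNA added to the samples, dap, read 3.73 to 6.03 with its 5′ probe set on the 6 untreated WT arrays and 7.21 to 8.07 on the other 12, so in any comparison of knockout or inhibitor arrays with untreated WT arrays the group and this split cannot be told apart. The stimulation responses of WT and of knockout cells, and the difference between the inhibitors, do not cross this split.

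Sequence was looked at in the 300 bases around each gene's start (250 before, 50 after) as listed by RefSeq for GRCm38.p6. A window was found for 34 of the 42 genes; Eif1a, Eif3e, Eif3h, Eif3i, Eif4e3, Eif4ebp1, Eif4g2 and Eif6 had no entry. The E-box CACGTG, the letters that Myc and its relatives bind and the same on both strands, stood in a window of 8 of the 34 genes (23.5%), against 2187 of the 27025 genes listed (8.09%). AAGGTCA, the core letters bound by ERRα, was in 0 of the 34 windows on either strand and in 5.38% of all genes. The longer TCAAGGTCA, which contains it, was in 0 of 34 and 0.466%. TGATGNAAN, the element read by Atf4, was in 1 gene, Eif2s3x, against 4.5% of all genes, and the interferon-stimulated response element in 3 genes, Eif2ak2, Eif2s3x and Eif3a, against 3.99%. A match is only a run of letters, and a gene can have several windows.

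The E-box runs upstream of a listed start are shown because the genes that hold them include the cap-binding factor, its helicase and eIF5A, whose transcripts rose with stimulation, and also genes that did not rise. Each is 30 bases on the gene's own strand, with the E-box in capitals, and the positions are those of GRCm38.p6.
Eif4e (chr3:138527028-138527057, plus strand): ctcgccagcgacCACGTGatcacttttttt
Eif4e (chr3:138527192-138527221, plus strand): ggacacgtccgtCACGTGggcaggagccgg
Eif4a1 (chr11:69672595-69672624, minus strand): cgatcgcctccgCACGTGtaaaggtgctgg
Eif5a (chr11:69921443-69921472, minus strand): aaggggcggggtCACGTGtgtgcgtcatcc
Eif5a (chr11:69920791-69920820, minus strand): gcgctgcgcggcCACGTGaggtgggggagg
Eif4h (chr5:134639488-134639517, minus strand): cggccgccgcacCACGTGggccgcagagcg
Eif3k (chr7:28981915-28981944, minus strand): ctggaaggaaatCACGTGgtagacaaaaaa
Eif3f (chr7:108934335-108934364, plus strand): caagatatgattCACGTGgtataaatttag
Eif1b (chr9:120492570-120492599, plus strand): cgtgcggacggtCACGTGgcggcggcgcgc
In Eif3a the only E-box lay after the start, so it is not shown. Of the 8 genes with an E-box, Eif3a, Eif4a1, Eif4e, Eif4h and Eif5a rose with stimulation in WT cells, Eif3f fell, and Eif1b and Eif3k did not pass. Of all 42 genes 25 rose, 6 fell and 11 did not pass, beside 37% of all genes tested that rose and 38.4% that fell. A link between the E-box and the rise was not tested.

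More initiation factor transcripts were higher than lower in stimulated cells against resting cells. No group without an inhibitor had 12 h outside the animal without the antibodies. Stimulation and time outside the animal therefore cannot be told apart, and rises and falls with stimulation are differences between these groups. In WT cells 25 of the 42 genes rose, 6 fell and 11 did not pass the test, an adjusted p under 0.05 in a limma fit over all 6873 genes tested. The share past the test in either direction was near that of all genes, 75.4%, while 37% of all genes rose and 38.4% fell. The median log2 difference of the 42 was 0.52, beside -0.01 over all genes. In knockout cells 25 rose, 4 fell and 13 did not pass, with a median of 0.39, beside 37.7% and 35.7% of all genes, 73.4% in either direction, and a median of 0.01. Of the 25 genes that rose in WT cells and the 25 that rose in knockout cells, 24 were shared, and 4 genes fell in both genotypes: Eif2ak3, Eif3f, Eif3h and Eif4a2. Resting cells carried the macrophage and B cell signal given above and stimulated cells much less of it. Of the tested erythroid and neutrophil markers, 3 of 4 and 3 of 7 were lower in stimulated WT cells. In knockout cells 4 of 4 and 7 of 7 were lower. The 4 T cell markers were lower in both genotypes, with WT array means of 12.75 to 12.83 at rest and 11.73 to 11.90 stimulated. The part of these cells in the differences was not tested. In bulk RNA, fewer cells of a type and less RNA per cell cannot be told apart.

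**Figure D1:**
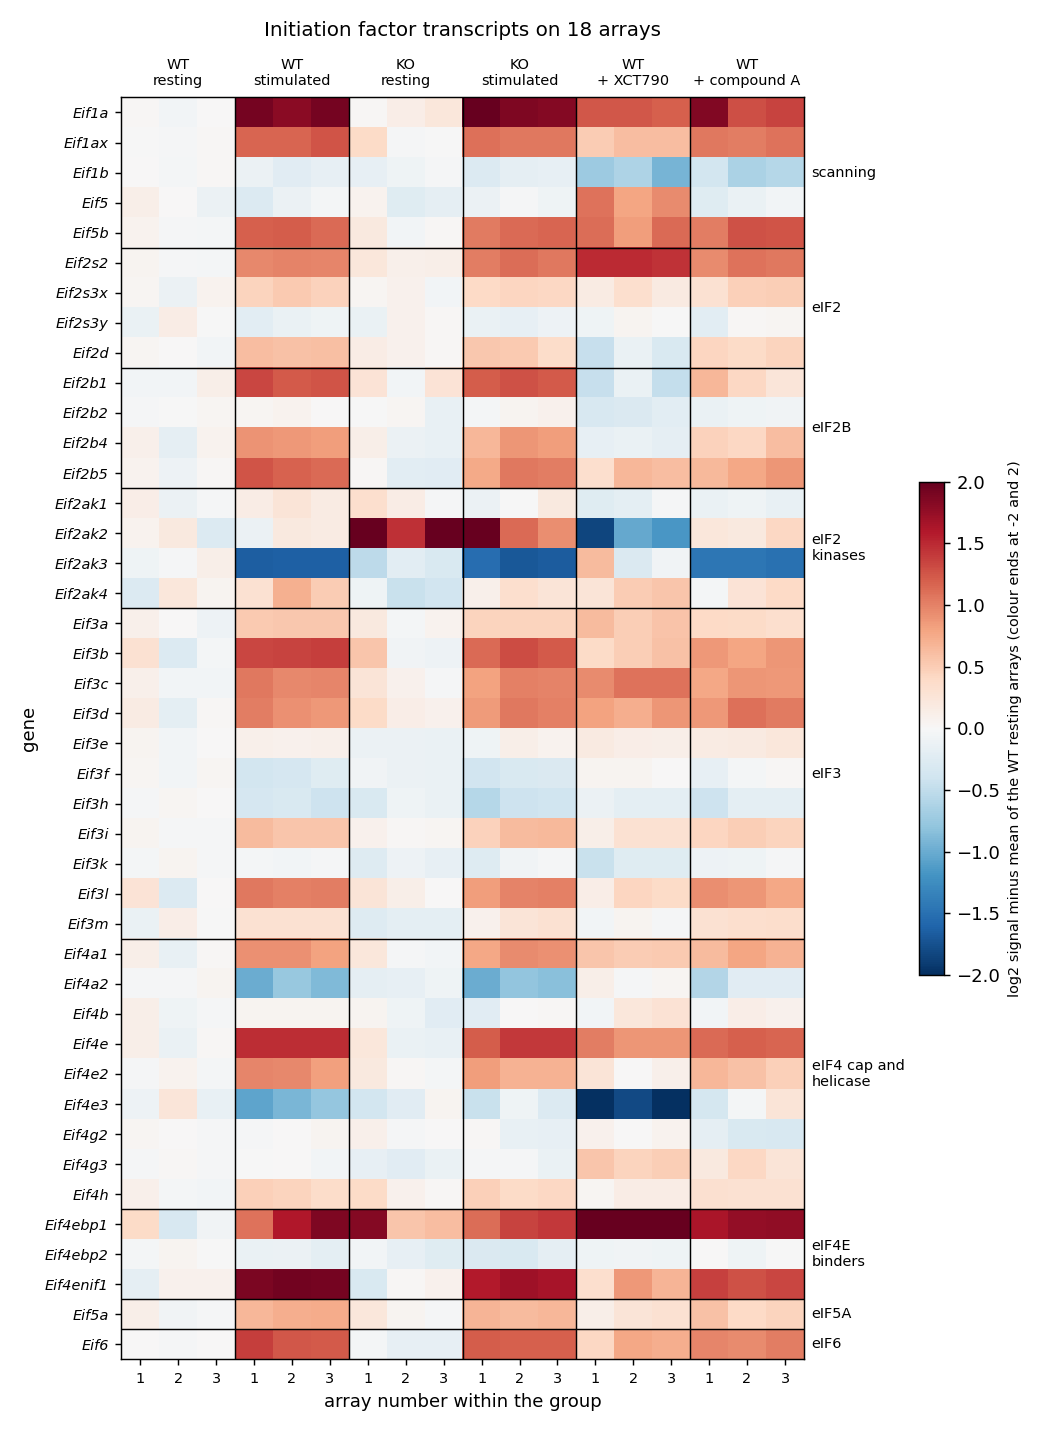
Log2 signal of the 42 genes on each of the 18 arrays minus the mean of the WT resting arrays, as colour (red higher, blue lower, ends at -2 and 2), with genes in rows by complex and arrays in columns by group. The stimulated columns of both genotypes are red in Eif1a, Eif4e and Eif4enif1, while Eif2ak2 is red in the knockout columns and near white in stimulated WT cells, and the XCT790 columns are dark blue in Eif4e3 and Eif2ak2.

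The scanning factors eIF1A, eIF5B and eIF5 keep the small subunit in its searching form, join the subunits and trigger GTP hydrolysis on eIF2. Of these 5 genes, 3 rose in each genotype and 0 fell, beside 37% of all genes that rose in WT and 37.7% in knockout cells. The share past the test in either direction was 60.0% in each genotype, beside 75.4% and 73.4% of all genes. Eif1a read 8.59, 8.51 and 8.57 on the 3 WT resting arrays and 10.47, 10.37 and 10.47 on the stimulated ones, a rise of 3.69-fold, 1.88 ± 0.12 on the log2 scale, limma adjusted p = 2.48e-09. The knockout arrays gave 8.59, 8.70 and 8.79 at rest and 10.65, 10.43 and 10.39 stimulated. Eif1ax, its X-linked relative, went from 10.97, 10.95 and 11.01 to 12.15, 12.15 and 12.24 in WT (2.30-fold, 1.20 ± 0.09 on the log2 scale, limma adjusted p = 1.44e-08) and from 11.37, 10.95 and 10.97 to 12.08, 12.04 and 12.04 in knockout cells. Resting and stimulated arrays did not overlap for either gene, and because the genes are close copies their probes may share RNA. Eif5b rose by 1.18 ± 0.09 in WT and 1.05 ± 0.09 in knockout cells on the log2 scale. Eif1b, a relative of eIF1, which guards start codon choice, differed by -0.16 ± 0.09 and did not pass. Eif5 depended on the probe set: the one chosen read 12.28, 12.16 and 12.04 at rest and 11.88, 12.04 and 12.12 stimulated (-0.15 ± 0.10, adjusted p = 0.2), whereas its other 3 probe sets were higher on every stimulated than on every resting WT array, with means going from 11.36 to 11.93, from 11.33 to 11.79 and from 9.46 to 10.49. The mean of all 4 gave 0.48 (adjusted p = 1.3e-05).

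Of the genes grouped with eIF2, 3 of 4 rose in each genotype. Eif2s2, the beta subunit, read 12.29, 12.21 and 12.20 at rest and 13.20, 13.23 and 13.22 stimulated in WT cells (1.97-fold, 0.98 ± 0.06 on the log2 scale, limma adjusted p = 1.56e-09), and in knockout cells 12.47, 12.34 and 12.36 and 13.26, 13.35 and 13.30. The gamma subunit is made from the X-linked Eif2s3x and the Y-linked Eif2s3y. Eif2s3x read 11.91, 11.76 and 11.94 and then 12.31, 12.40 and 12.33 in WT cells, a rise of 1.39-fold, 0.48 ± 0.07 on the log2 scale, limma adjusted p = 2.61e-05, and 11.91, 11.95 and 11.82 and then 12.27, 12.30 and 12.29 in knockout cells. As the mean of its probe sets the rise was 1.21 in WT and 1.17 in knockout cells, since 1 of the 3, a dim one, went from 5.49 to 8.24 in WT cells. Eif2s3y lay between 9.84 and 10.20 on all 18 arrays and passed no comparison: WT 9.92, 10.20 and 10.04 at rest and 9.84, 9.92 and 9.96 stimulated, knockout 9.92, 10.13 and 10.07 and 9.92, 9.89 and 9.95, XCT790 9.97, 10.10 and 10.04, compound A 9.84, 10.08 and 10.09. A Y-linked transcript was thus present at a like level on every array. Eif2d, a separate factor that can also deliver tRNA, read 9.13, 9.09 and 9.04 at rest and 9.71, 9.67 and 9.69 stimulated in WT cells (1.52-fold, 0.60 ± 0.08 on the log2 scale, limma adjusted p = 5.45e-06), and 9.24, 9.17 and 9.11 and 9.63, 9.62 and 9.45 in knockout cells.

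The exchange factor eIF2B was represented by 4 of its 5 subunits, and 3 of these rose in each genotype. Eif2b1, the alpha subunit, went from 7.35, 7.36 and 7.53 to 8.75, 8.63 and 8.66 in WT cells (2.41-fold, 1.27 ± 0.12 on the log2 scale, limma adjusted p = 1.99e-07) and from 7.68, 7.35 and 7.68 to 8.62, 8.68 and 8.64 in knockout cells. Eif2b4, the delta subunit, read 10.10, 9.82 and 10.07 and 10.90, 10.86 and 10.84 in WT and 10.11, 9.89 and 9.85 and 10.66, 10.88 and 10.84 in knockout cells, a WT rise of 1.83-fold. For both genes every stimulated array was above every resting array of its genotype. Eif2b5, the catalytic epsilon subunit, rose by 1.19 ± 0.11 in WT and 1.08 ± 0.11 in knockout cells on the log2 scale. Eif2b2, the beta subunit, did not pass, with 0.04 ± 0.06 and 0.07 ± 0.06.

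The 4 eIF2 kinases each answer to a different stress and did not share a direction. Eif2ak3 encodes PERK, the kinase of the endoplasmic reticulum stress response. It read 9.42, 9.47 and 9.61 on WT resting and 7.85, 7.87 and 7.87 on WT stimulated arrays, a fall of 3.11-fold, -1.64 ± 0.17 on the log2 scale, limma adjusted p = 5e-07. Knockout cells went from 8.97, 9.29 and 9.19 to 7.98, 7.80 and 7.83 (-1.28 ± 0.17, adjusted p = 7.61e-06), so the groups did not overlap in either genotype. Its other 2 probe sets stayed under the floor, and the mean of all 3 gave -0.54 in WT cells. Eif2ak4, the amino acid sensor GCN2, read 6.00, 6.50 and 6.33 at rest and 6.58, 6.99 and 6.79 stimulated in WT and 6.19, 5.84 and 5.90 and 6.38, 6.61 and 6.53 in knockout cells, and rose by 0.51 ± 0.15 (adjusted p = 0.00762) and 0.53 ± 0.15 (adjusted p = 0.00665). Eif2ak1, the heme-regulated kinase HRI, read 8.53, 8.28 and 8.38 and 8.55, 8.66 and 8.56 in WT and 8.73, 8.55 and 8.38 and 8.28, 8.39 and 8.60 in knockout cells. Its WT difference of 0.19 ± 0.10 did not pass (adjusted p = 0.1). It passed without WT resting array 1 (0.26, adjusted p = 0.0494) and as the mean of its probe sets (0.42, adjusted p = 0.00153). Eif2ak2, the double-stranded RNA sensor PKR, did not pass in either genotype, at 0.08 ± 0.45 in WT and -0.24 ± 0.45 in knockout cells.

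eIF3 was the largest complex, with 11 subunits on the array. In WT cells 7 of them rose, 2 fell and 2 did not pass, beside 37% of all genes that rose and 38.4% that fell. In knockout cells 8 rose and 2 fell, beside 37.7% and 35.7%. The share past the test in either direction was 81.8% and 90.9%, beside 75.4% and 73.4% of all genes. Eif3b, a core subunit, read 10.27, 9.70 and 9.93 at rest and 11.30, 11.32 and 11.35 stimulated in WT (2.56-fold, 1.35 ± 0.15 on the log2 scale, limma adjusted p = 1.56e-06) and 10.52, 9.90 and 9.87 and 11.10, 11.27 and 11.20 in knockout cells. Every stimulated reading was above every resting one. The other genes that rose in WT cells, Eif3a, Eif3c, Eif3d, Eif3i, Eif3l and Eif3m, did so by 0.31 (Eif3m) to 1.03 (Eif3l) on the log2 scale, and Eif3a by 1.22 as the mean of its probe sets. Eif3h and Eif3f, the subunits with an MPN domain, fell. Eif3h went from 13.05, 13.12 and 13.08 to 12.75, 12.77 and 12.66 in WT cells (1.28-fold, -0.36 ± 0.08 on the log2 scale, limma adjusted p = 0.000821) and from 12.77, 12.99 and 12.95 to 12.51, 12.66 and 12.68 in knockout cells (-0.29, adjusted p = 0.00451). The knockout call ended as the mean of its probe sets (-0.10, adjusted p = 0.0584), of which the other two stayed under the floor. Eif3f went from 13.92, 13.82 and 13.92 to 13.52, 13.55 and 13.63 (1.25-fold, -0.32 ± 0.06 on the log2 scale, limma adjusted p = 0.000278) and from 13.81, 13.76 and 13.74 to 13.49, 13.57 and 13.59. These falls were small beside the rise of Eif3b, though the arrays of the 2 states did not overlap in WT cells. Eif3e rose in knockout cells by 0.16 ± 0.06 (adjusted p = 0.0236); the call was lost without knockout resting array 3 or stimulated array 2 or 3 (adjusted p = 0.058, 0.113 and 0.0808). The difference was -0.00 as the mean of its probe sets.

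Of the 9 cap-binding and helicase genes 4 rose and 2 fell in WT cells, and 4 rose and 1 fell in knockout cells. Of all genes 37% rose and 38.4% fell in WT, and 37.7% and 35.7% in knockout cells. The share past the test in either direction was 66.7% and 55.6%, beside 75.4% and 73.4% of all genes. Eif4e, the cap-binding protein itself, read 10.41, 10.15 and 10.31 on WT resting and 11.77, 11.76 and 11.76 on WT stimulated arrays, a rise of 2.78-fold, 1.48 ± 0.10 on the log2 scale, limma adjusted p = 5.8e-09, and went from 10.52, 10.15 and 10.14 to 11.50, 11.71 and 11.70 in knockout cells. As the mean of its probe sets the WT rise was 2.09. Eif4e3, a cap-binding relative, went the other way in WT cells, from 7.89, 8.23 and 7.84 to 6.93, 7.08 and 7.22 (1.87-fold, -0.91 ± 0.18 on the log2 scale, limma adjusted p = 0.000385). In knockout cells it read 7.62, 7.76 and 8.05 and 7.54, 7.90 and 7.72, groups that overlapped and did not differ past the test (-0.09 ± 0.18, adjusted p = 0.655). Eif4e2, a cap-binding protein that does not recruit eIF4G, read 9.74, 9.84 and 9.73 and 10.74, 10.73 and 10.59 in WT and 9.97, 9.80 and 9.73 and 10.60, 10.46 and 10.46 in knockout cells, and rose by 0.92 ± 0.08 and 0.67 ± 0.08. The RNA helicase eIF4A has closely similar forms in Eif4a1 and Eif4a2. Eif4a1 went from 13.63, 13.37 and 13.55 to 14.44, 14.44 and 14.33 in WT cells (1.84-fold, 0.88 ± 0.09 on the log2 scale, limma adjusted p = 2.95e-07) and from 13.74, 13.50 and 13.46 to 14.30, 14.47 and 14.43 in knockout cells. Eif4a2 went from 13.56, 13.56 and 13.64 down to 12.59, 12.83 and 12.71 (1.83-fold, -0.87 ± 0.10 on the log2 scale, limma adjusted p = 1.01e-06) and from 13.41, 13.43 and 13.50 down to 12.60, 12.80 and 12.75. Both helicase differences left no overlap between states in either genotype. Eif4h, a helper of the helicase, rose by 0.43 ± 0.08 in WT and 0.26 ± 0.08 in knockout cells; without knockout resting array 3 the latter was 0.19 (adjusted p = 0.0633). Eif4b, the other helper, and the scaffolds Eif4g2 and Eif4g3 did not pass, with WT differences from -0.01 to 0.05.

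Of the proteins that hold eIF4E back, Eif4enif1 and Eif4ebp1 were among the largest WT rises. Eif4enif1, the carrier 4E-T, read 9.78, 10.04 and 10.05 at rest and 11.85, 11.89 and 11.87 stimulated in WT (3.77-fold, 1.91 ± 0.12 on the log2 scale, limma adjusted p = 3.82e-09) and 9.65, 9.98 and 10.04 and 11.55, 11.65 and 11.61 in knockout cells. Eif4ebp1, the mTOR-controlled repressor 4E-BP1, read 8.36, 7.66 and 7.91 and 9.07, 9.58 and 9.85 in WT cells, a rise of 2.88-fold, 1.53 ± 0.30 on the log2 scale, limma adjusted p = 0.000327, with no overlap. In knockout cells it read 9.81, 8.54 and 8.60 at rest and 9.10, 9.33 and 9.40 stimulated, where resting array 1 was above all stimulated arrays and the difference did not pass (0.29 ± 0.30, adjusted p = 0.39). Eif4ebp2 read 11.31, 11.41 and 11.34 and 11.21, 11.23 and 11.16 in WT and 11.29, 11.19 and 11.10 and 11.06, 11.05 and 11.17 in knockout cells. The WT fall of this chosen probe set was small (1.11-fold, -0.15 ± 0.06 on the log2 scale, limma adjusted p = 0.0359). The call was lost with arrays set to a common median (adjusted p = 0.133) or 75th percentile (0.112), without WT resting array 2 or 3 (0.122 and 0.0649), and without stimulated array 1, 2 or 3 (0.0618, 0.0532 and 0.109). Other Eif4ebp2 probe sets above the floor fell further in WT cells, from means of 8.54 to 7.97 and of 7.70 to 6.55, without overlap. Eif6, which keeps the ribosomal subunits apart, went from 10.68, 10.66 and 10.68 to 12.06, 11.92 and 11.91 in WT (2.44-fold, 1.29 ± 0.08 on the log2 scale, limma adjusted p = 3.09e-09) and from 10.64, 10.52 and 10.52 to 11.89, 11.87 and 11.88 in knockout cells. Eif5a, whose hypusinated product helps the ribosome form difficult peptide bonds, rose by 0.71 ± 0.08 in WT and 0.57 ± 0.08 in knockout cells.

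The loss of ERRα left the response of these genes without a difference past the test. In the test of the knockout response minus the WT response, 0 of the 42 genes passed with limma, beside 0.902% of all genes, and 3 had an unadjusted p under 0.05. The largest differences were those of Eif4ebp1 (-1.23 ± 0.43, adjusted p = 0.163) and Eif4e3 (0.81 ± 0.26, adjusted p = 0.138). For Eif4ebp1 the difference was -0.82 without knockout resting array 1 (adjusted p = 0.268), and it passed with array weights (-0.94, adjusted p = 0.0114) and with arrays 2 and 3 of each group alone (-1.14, adjusted p = 0.00266). Eif4e3 passed with array weights (0.70, adjusted p = 0.0226). The 95% interval was -2.15 to -0.32 for Eif4ebp1 and 0.26 to 1.37 for Eif4e3, so these data do not show that the genotypes respond alike. In the same test 2 of 4 erythroid markers passed, with a negative difference, and 0 of 7 neutrophil markers did. The part of other cells in these values was not tested. Across the 42 genes the responses of the genotypes, which share no array, correlated with r = 0.942; genes are not independent replicates.

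**Figure D2:**
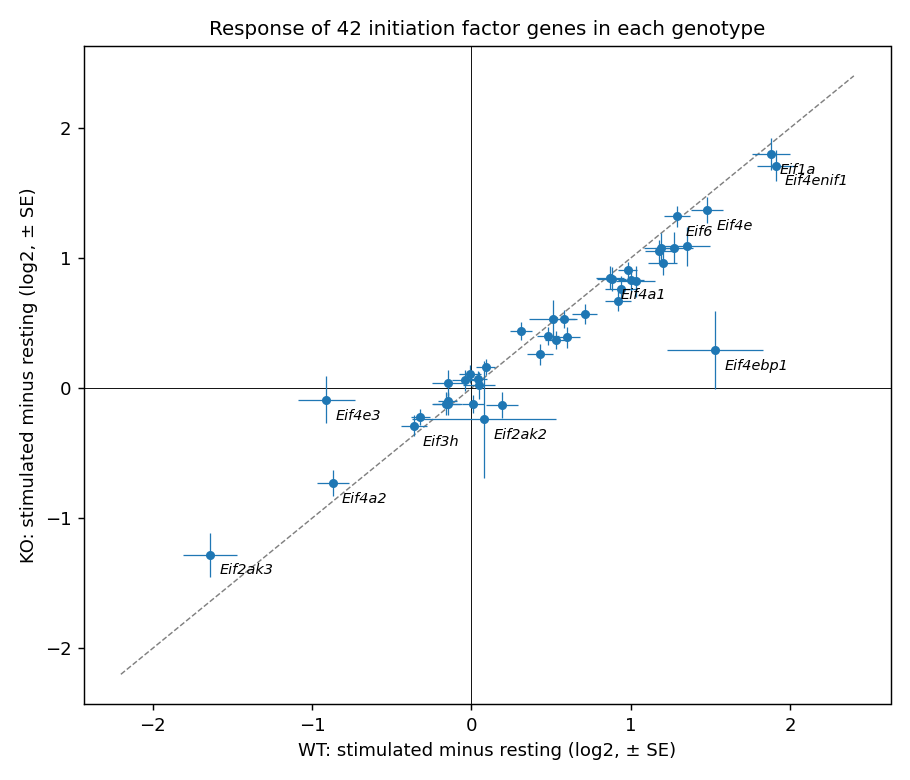
Log2 difference between stimulated and resting arrays for each of the 42 genes, in WT cells (horizontal) and in knockout cells (vertical), with bars of 1 SE from the fit and the line of equal response dashed. Most genes lie near the line, while Eif4ebp1 (1.53 and 0.29) and Eif4e3 (-0.91 and -0.09) lie off it.

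Between genotypes at the same state, few of these genes differed. At rest 2 of the 42 were higher in knockout cells and 0 lower, beside 6.74% of all genes higher and 19% past the test in either direction, and after stimulation 0 passed with limma, beside 1.59% of all genes higher and 2.18% in either direction; 9 and 5 genes had an unadjusted p under 0.05. Eif2ak2, the interferon-induced sensor PKR, was the clearest at rest. It read 5.91, 6.03 and 5.57 on WT resting and 8.17, 7.30 and 8.05 on knockout resting arrays (4-fold, 2.00 ± 0.45 on the log2 scale, limma adjusted p = 0.00871), with no overlap, and 1.84 (adjusted p = 0.0314) without knockout resting array 1, the array furthest from its group over all genes. After stimulation it read 5.72, 6.04 and 6.00 in WT and 9.06, 6.97 and 6.77 in knockout cells, again without overlap, but the difference did not pass (1.68 ± 0.45, adjusted p = 0.0749). Without knockout stimulated array 1 it was 0.95 (adjusted p = 0.12), and it passed without array 3 (2.09, adjusted p = 0.0315) and with array weights (1.02, adjusted p = 0.00438). The second probe set of Eif2ak2 did not show the difference: it read 5.57, 5.03 and 4.93 on WT resting and 5.0, 4.89 and 5.0 on knockout resting arrays. The mean of both gave 0.89 at rest (adjusted p = 0.0886).

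Eif4ebp1 was also higher in resting knockout cells (2.01-fold, 1.01 ± 0.30 on the log2 scale, limma adjusted p = 0.0333), from the values given above, whose lowest knockout array (8.54) was above the highest WT array (8.36). This call was lost without knockout resting array 1 (0.59, adjusted p = 0.123) and without WT resting array 2 (0.85, 0.118) or 3 (0.97, 0.0968). Over the same arrays 4 of 4 tested erythroid and 5 of 7 tested neutrophil markers were higher in knockout cells and 2 of 4 B cell markers lower, with the ranges given above, and their part in both differences was not tested. After stimulation the erythroid markers were under the floor in both genotypes and the neutrophil markers averaged 2.21 to 2.58 in WT and 2.74 to 5.36 in knockout cells. Eif4e3 was higher in stimulated knockout cells by 0.64 ± 0.18 with no overlap, but did not pass (adjusted p = 0.098). It passed with the array number as a block (adjusted p = 0.0336) and as the mean of its probe sets (1.23, adjusted p = 9.97e-05), and with array weights (0.73, adjusted p = 0.000697). Its probe sets disagreed at rest: the chosen one differed by -0.18, while the second read 6.67, 6.76 and 7.05 on WT and 7.86, 7.77 and 8.13 on knockout resting arrays.

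With either inhibitor more of these transcripts were lower than higher relative to stimulated WT cells. With XCT790 7 of the 42 were higher, 24 lower and 11 did not pass, beside 29.1% and 36.9% of all genes, 66% in either direction. The median was -0.31, and -0.06 over all genes. With compound A 4 were higher, 13 lower and 25 did not pass, beside 14.5% and 18.7% of all genes, 33.2% in either direction, with medians of -0.13 and -0.03. These comparisons use the same stimulated WT arrays as each other and as the WT response, so their values are given side by side and not as independent evidence. By complex, XCT790 gave 4 lower and 0 higher of 4 for eIF2B, 5 lower and 1 higher of 11 for eIF3, 5 and 2 of 9 for the cap-binding and helicase genes, 3 and 1 of 5 for the scanning factors and 2 and 1 of 4 for the eIF2 group. Compound A gave 3 lower and 0 higher for eIF2B, 1 and 1 for eIF3, 3 and 3 for the cap-binding and helicase genes, 2 and 0 for the scanning factors and 0 and 0 for the eIF2 group. Both cross the dap split. On the arrays compared the macrophage markers averaged 2.39 to 2.52, the erythroid markers 2.26 and the B cell markers 5.27 to 5.99. Against stimulated WT cells 3 of 4 T cell markers were lower with XCT790, with array means of 10.96 to 11.16 against 11.73 to 11.90, and 1 of 4 tested B cell markers was lower. With compound A 1 of 4 T cell markers was higher (array means 11.93 to 12.03). Their part in these differences was not tested.

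**Figure D3:**
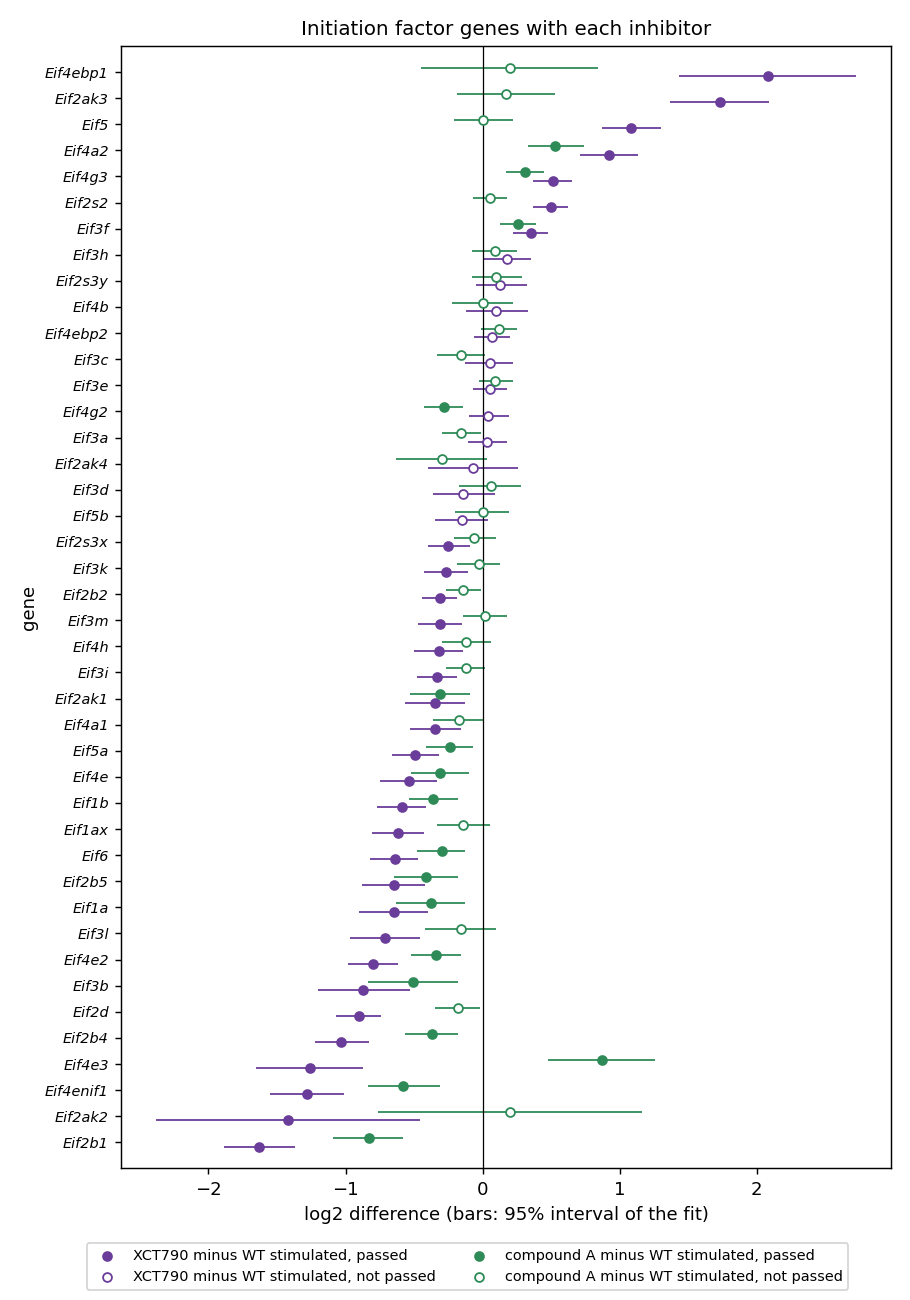
Log2 difference from stimulated WT cells for the 42 genes with XCT790 (purple) and compound A (green), ordered by the XCT790 value, with 95% intervals of the fit; filled points passed the test and open points did not. At the top Eif4ebp1, Eif2ak3 and Eif5 stand to the right with XCT790 and near 0 with compound A, and Eif4e3 lies on opposite sides (-1.26 and 0.87).

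Of the 4 eIF2B genes, Eif2b1 and Eif2b4 had the larger differences with XCT790. Eif2b1 read 6.95, 7.27 and 6.93 with XCT790 and 8.07, 7.82 and 7.65 with compound A, both below the stimulated arrays given above. It was lower with XCT790 than in stimulated cells by 3.10-fold, -1.63 ± 0.12 on the log2 scale, limma adjusted p = 4.64e-08. With compound A it was lower by 1.78-fold, -0.83 ± 0.12 on the log2 scale, limma adjusted p = 0.00018. Eif2b4 read 9.84, 9.87 and 9.82 and 10.46, 10.42 and 10.61, lower by 2.04-fold, -1.03 ± 0.09 on the log2 scale, limma adjusted p = 2.44e-07 and by 1.30-fold, -0.37 ± 0.09 on the log2 scale, limma adjusted p = 0.00611. Every inhibitor reading of both genes was under every stimulated WT reading. Eif2b5 was lower by -0.65 ± 0.11 and -0.41 ± 0.11. Eif2b2 was lower with XCT790 alone, by -0.31 ± 0.06, and the compound A difference of -0.14 ± 0.06 did not pass. Eif2d read 8.63, 8.96 and 8.78 with XCT790, below its stimulated arrays (1.87-fold, -0.90 ± 0.08 on the log2 scale, limma adjusted p = 2.05e-07), and 9.52, 9.47 and 9.53 with compound A (-0.18 ± 0.08, adjusted p = 0.0869).

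Of the 4 kinases, Eif2ak3 was higher and Eif2ak2 lower with XCT790 than with compound A, and the other two did not pass between the inhibitors. Eif2ak3 read 10.14, 9.21 and 9.43 with XCT790, a level like that of resting cells, and 8.05, 8.05 and 8.01 with compound A. It was higher than in stimulated cells by 3.32-fold, 1.73 ± 0.17 on the log2 scale, limma adjusted p = 5.98e-07 with XCT790 and by 0.17 ± 0.17 (adjusted p = 0.477) with compound A. Against resting WT cells the XCT790 difference was 0.09 ± 0.17 (95% interval -0.27 to 0.45). Eif2ak2 read 4.01, 4.81 and 4.68 with XCT790, near the floor, and 6.07, 6.04 and 6.26 with compound A, at the upper end of the stimulated arrays. With XCT790 it was lower by 2.68-fold, -1.42 ± 0.45 on the log2 scale, limma adjusted p = 0.0118. Without XCT790 array 1 the difference was -1.17 (adjusted p = 0.0553). The second probe set of Eif2ak2, not tested alone, differed less, with means of 5.11 stimulated, 4.73 with XCT790 and 4.93 with compound A. Eif2ak1 read 8.15, 8.20 and 8.38 and 8.27, 8.31 and 8.25, lower by -0.35 ± 0.10 (adjusted p = 0.00759) and -0.31 ± 0.10 (adjusted p = 0.03), calls that both ended as the mean of its probe sets (-0.04 and -0.05). Leaving out any 1 of the 6 arrays also ended the compound A call (adjusted p from 0.0536 to 0.101). Eif2ak4 read 6.54, 6.79 and 6.83 and 6.24, 6.55 and 6.68 and passed with neither, at -0.07 and -0.30.

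With their chosen probe sets, Eif4ebp1 and Eif5 were higher with XCT790 and not with compound A. Eif4ebp1 read 11.19, 11.83 and 11.73 with XCT790, above all other arrays of the series, and 9.62, 9.73 and 9.75 with compound A, within the stimulated range. The differences from stimulated cells were 4.22-fold, 2.08 ± 0.30 on the log2 scale, limma adjusted p = 2.77e-05, and 0.20 ± 0.30 (adjusted p = 0.67). Its second probe set, whose readings lay above the floor as well, gave means of 9.26 stimulated, 11.16 with XCT790 and 9.48 with compound A. As the mean of its probe sets the XCT790 difference was 1.35. Eif5 read 13.24, 12.95 and 13.10 and 11.92, 12.03 and 12.11, higher with XCT790 by 2.12-fold, 1.08 ± 0.10 on the log2 scale, limma adjusted p = 4.02e-07. The compound A difference was 0.00 ± 0.10 (adjusted p = 1). All 4 of its probe sets were higher with XCT790, with means of 13.10, 13.07, 12.50 and 11.31 against 12.01, 11.93, 11.79 and 10.49 in stimulated cells. With compound A the probe sets disagreed. The second of them, not tested alone, read 12.23, 12.26 and 12.22, above its stimulated arrays (11.89, 11.93 and 11.96). The last ones averaged 11.78 and 10.51. Eif2s2 read 13.73, 13.73 and 13.69 and 13.18, 13.33 and 13.29, higher with XCT790 by 1.41-fold, 0.50 ± 0.06 on the log2 scale, limma adjusted p = 3.44e-06. A dimmer Eif2s2 probe set, not tested alone, went the other way, from a mean of 8.95 stimulated to 8.28 with XCT790. The rest of its further probe sets were higher with XCT790, by 0.44 to 2.35. Eif4ebp2 read 11.26, 11.28 and 11.27 and 11.36, 11.26 and 11.34 with its chosen probe set and passed with neither. Its other probe sets above the floor were not tested alone and went in opposite directions. Their means were 8.62 with XCT790 and 8.91 with compound A against 7.97 stimulated, and 5.32 and 6.04 against 6.55. Eif4enif1 read 10.30, 10.83 and 10.64 and 11.33, 11.24 and 11.30, lower by 2.43-fold, -1.28 ± 0.12 on the log2 scale, limma adjusted p = 5.87e-07, and by 1.49-fold, -0.58 ± 0.12 on the log2 scale, limma adjusted p = 0.00301.

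Among the cap-binding genes, Eif4e3 was the only one called in opposite directions. It read 5.62, 6.18 and 5.68 with XCT790, under all other arrays, and 7.64, 7.95 and 8.25 with compound A, above the stimulated arrays and around the resting level. XCT790 was lower than stimulated cells by 2.39-fold, -1.26 ± 0.18 on the log2 scale, limma adjusted p = 2.77e-05, and compound A higher by 1.83-fold, 0.87 ± 0.18 on the log2 scale, limma adjusted p = 0.00256. Its second probe set gave means of 6.05 stimulated, 5.68 with XCT790 and 7.85 with compound A. Eif4a2 read 13.71, 13.56 and 13.63 and 13.00, 13.37 and 13.36, higher with both (0.92, 1.89-fold, adjusted p = 1.15e-06, and 0.53, 1.44-fold, adjusted p = 0.000949). Eif4g3, a scaffold, read 10.39, 10.41 and 10.35 stimulated, 10.95, 10.84 and 10.89 with XCT790 and 10.59, 10.82 and 10.66 with compound A, higher by 0.51 ± 0.07 and 0.31 ± 0.07 (adjusted p = 0.00276). Eif4g2, the scaffold DAP5 that does not bind eIF4E, read 13.76, 13.78 and 13.84 stimulated, 13.87, 13.79 and 13.85 with XCT790 and 13.60, 13.47 and 13.46 with compound A, lower with compound A by -0.28 ± 0.07 (adjusted p = 0.00505). Eif4e2 read 10.02, 9.77 and 9.87 and 10.43, 10.36 and 10.25, lower by -0.80 ± 0.08 (adjusted p = 1.16e-06) and -0.34 ± 0.08 (adjusted p = 0.00669). Eif4e and Eif4a1 stayed above the resting level with both. Eif4e read 11.31, 11.18 and 11.18 and 11.43, 11.48 and 11.45, lower than in stimulated cells by -0.54 ± 0.10 and -0.31 ± 0.10. The XCT790 difference was -1.44 as the mean of its probe sets, and the compound A call ended without any 1 of the 6 arrays (adjusted p from 0.0592 to 0.0738). Eif4a1 was lower with XCT790 by -0.35 ± 0.09 and with compound A by -0.17 ± 0.09, where the latter did not pass (adjusted p = 0.146).

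**Figure D4:**
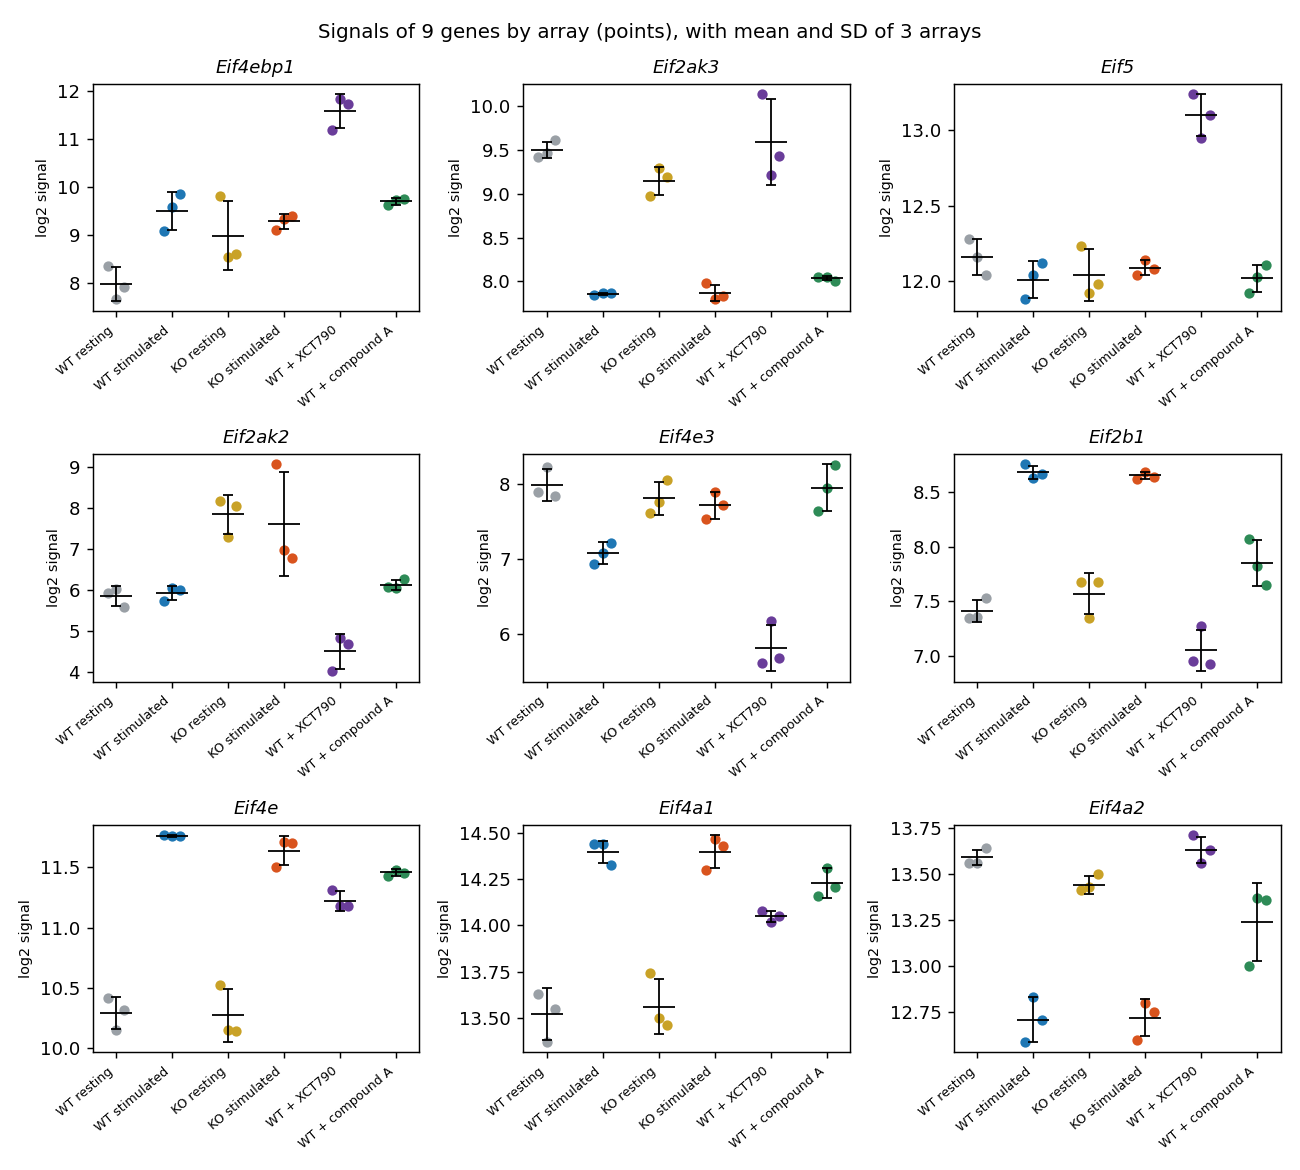
Log2 signal of 9 genes on each array (points) in the 6 groups, with the mean and SD of 3 arrays (black); the vertical axes are cut to each gene's range and do not start at 0. Eif4ebp1 and Eif5 are highest with XCT790, and Eif2ak3 with XCT790 lies at the resting level. The chosen probe set of Eif2ak2 is high in the knockout groups only, which its second probe set, not drawn, did not show at rest. Eif4a1 and Eif4a2 go in opposite directions from resting to stimulated cells.

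Several other genes were lower with one or both inhibitors, and Eif3f was higher. Eif1b read 11.19, 11.07 and 11.13 stimulated, 10.58, 10.68 and 10.37 with XCT790 and 10.93, 10.66 and 10.73 with compound A, and was lower with both (-0.59, 1.51-fold, adjusted p = 2.68e-05, and -0.36, 1.28-fold, adjusted p = 0.00541). Eif3f read 13.93, 13.93 and 13.89 and 13.72, 13.84 and 13.91, higher with both, by 0.35 ± 0.06 and 0.26 ± 0.06. Eif1ax read 11.49, 11.60 and 11.59 with XCT790 and 12.04, 12.01 and 12.06 with compound A with its chosen probe set. It was lower by -0.62 ± 0.09 with XCT790, and compound A did not pass (-0.14 ± 0.09). The second probe set of Eif1ax, not tested alone, was lower with both, with means of 9.13 stimulated, 7.77 with XCT790 and 7.92 with compound A. Eif3l, Eif3i, Eif3k and Eif3m were lower with XCT790 by -0.71, -0.33, -0.27 and -0.31, and none of the 4 passed with compound A. The second probe set of Eif3i, not tested alone, did not show the fall, with means of 13.05 stimulated and 13.10 with XCT790. Eif3b was lower with both, by -0.87 and -0.51. The compound A call of Eif3b ended without stimulated array 2 or 3 or compound A array 2 (adjusted p = 0.0539, 0.0608 and 0.0695). Eif1a, lower by -0.38 with compound A, lost its call without stimulated array 1 or 3 or compound A array 2 or 3 (adjusted p = 0.0648, 0.0681, 0.115 and 0.101). Eif6, lower by -0.30, lost it without stimulated array 1 (0.0529), and Eif5a, lower by -0.24, lost it without any 1 stimulated array or without compound A array 2 or 3 (0.0533 to 0.127). With XCT790 Eif1a, Eif6 and Eif5a were lower by -0.65, -0.64 and -0.49.

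Set directly against each other at 20 µM, XCT790 and compound A differed in 26 of the 42 genes, 9 higher and 17 lower with XCT790, beside 24.8% and 27.8% of all genes, 52.6% in either direction. This comparison lies on one side of the dap split, as do the stimulation responses of WT and of knockout cells. The T cell markers were lower with XCT790, 4 of 4, with array means of 10.96 to 11.16 against 11.93 to 12.03. Their part was not tested. Of the 12 genes with the smallest adjusted p, the largest differences were in Eif4e3 (4.36-fold, -2.13 ± 0.18 on the log2 scale, limma adjusted p = 5.19e-07), Eif4ebp1 (3.68-fold, 1.88 ± 0.30 on the log2 scale, limma adjusted p = 0.000124), Eif2ak3 (2.94-fold, 1.56 ± 0.17 on the log2 scale, limma adjusted p = 3.98e-06) and Eif5 (2.11-fold, 1.08 ± 0.10 on the log2 scale, limma adjusted p = 1.13e-06). Their XCT790 and compound A arrays, given above, did not overlap. The others were Eif2b1 at -0.80, Eif2d at -0.72, Eif4enif1 at -0.70, Eif2b4 at -0.65, Eif1ax at -0.48, Eif4e2 at -0.46, Eif2s2 at 0.44 and Eif4g2 at 0.33, with adjusted p-values from 4.02e-06 to 0.000816. The other 14 genes that passed ran from -1.62 (Eif2ak2) to 0.39 (Eif4a2). Among the 16 that did not pass, Eif2ak1 differed by -0.04 (95% interval -0.26 to 0.18) and Eif3e by -0.04 (-0.17 to 0.08), intervals that bound a difference without showing that there is none.

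Against resting WT cells, the other reading of the labels, 22 of the 42 genes were higher and 7 lower with XCT790, and 26 were higher and 5 lower with compound A. Over all genes 33.6% and 38.3%, and 32.6% and 37.1%, were called, 71.9% and 69.7% in either direction. The medians were 0.19 and 0.40. Eif1a, Eif4e, Eif5b and Eif2s2 were above resting with both, by 1.23, 0.93, 1.03 and 1.48 with XCT790 and 1.5, 1.17, 1.18 and 1.03 with compound A. Eif2b1 lay under resting with XCT790 (-0.36 ± 0.12, adjusted p = 0.0141) and above it with compound A (0.44 ± 0.12, 0.00456). The call of Eif2b1 with XCT790 ended without WT resting array 3 or XCT790 array 1 or 3 (adjusted p = 0.0603, 0.0535 and 0.0611). Myc, an activator of ribosome and translation genes, read 9.88, 9.79 and 9.75 at rest, 12.20, 11.99 and 11.99 stimulated, 11.09, 10.98 and 10.98 with XCT790 and 11.82, 11.54 and 11.48 with compound A, so both inhibitor groups lay between the resting and the stimulated level.

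Genes of the neighbouring pathways were taken from lists by name, and the lists were chosen with earlier results of these data known. Their counts beside the shares of all genes are therefore a description and not a test. The stress response that follows eIF2 phosphorylation was represented by Atf4, Asns, Chac1, Ddit3, Ppp1r15a, Ppp1r15b and Trib3. All 7 were higher with XCT790 than in stimulated cells and than with compound A, beside 29.1% and 24.8% of all genes. Compound A gave 2 higher and 1 lower against stimulated cells, beside 14.5% and 18.7%. Against resting WT cells XCT790 gave 5 higher and 0 lower, beside 33.6% and 38.3%. There Ppp1r15a (mean 11.05 against 11.45 at rest) and Ppp1r15b (11.15 against 11.17) did not pass. Asns averaged 8.37 with XCT790 and 8.54 in resting knockout cells. Atf4, the factor translated when eIF2 is phosphorylated, read 11.98, 12.00 and 11.99 stimulated, 13.29, 12.99 and 13.12 with XCT790 (2.21-fold, 1.14 ± 0.09 on the log2 scale, limma adjusted p = 1.06e-07) and 11.89, 11.99 and 12.02 with compound A. Trib3, a target of Atf4, was under log2 4 on all stimulated arrays and read 9.24, 9.34 and 9.25 with XCT790 and 3.11, 4.94 and 4.83 with compound A. Chac1 was under log2 4 on all arrays except those of XCT790, at 6.24, 6.84 and 6.84. Ddit3, the factor CHOP, was higher with XCT790 by 3.20 ± 0.24 and with compound A by 1.16 ± 0.24. These arrays measure RNA and give no value for phosphorylation of eIF2.

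The counts below come from lists chosen in the same way. Beside them, with stimulation 37% of all genes were higher and 38.4% lower in WT cells (75.4% in either direction). In knockout cells these shares were 37.7% and 35.7% (73.4%). With stimulation in WT cells, 3 of 3 genes for the hypusine of eIF5A rose, with Dohh (2.78-fold), Odc1 (4.10-fold) and Dhps (1.77-fold), and 3 of 3 in knockout cells. Of the 6 recycling and related factors 5 rose and 1 fell, with Denr (2.17-fold) and Abce1 (2.26-fold) ahead, and in knockout cells 4 rose and 1 fell. The elongation and release list gave 4 higher and 1 lower of 8 in WT and 4 and 0 in knockout cells, with Eef1e1 at 2.69-fold and the release factor Gspt1 at 2.22-fold in WT cells. Among 7 poly(A) binding and mRNA-end genes 4 rose and 2 fell in WT and 3 and 2 in knockout cells. Pdcd4, an inhibitor of eIF4A, fell by 2.86-fold in WT cells. Of 9 genes around mTOR and the eIF4E kinases, 3 rose and 5 fell in WT and 2 and 4 in knockout cells, and Ddit4, a brake on mTOR, fell from 13.18, 12.77 and 12.85 to 9.59, 8.94 and 9.08 in WT cells (13.2-fold, -3.73 ± 0.17 on the log2 scale, limma adjusted p = 1.12e-10). With XCT790 Ddit4 was higher than in stimulated cells by 2.22 ± 0.17, and with compound A by 0.07 ± 0.17 (adjusted p = 0.803).

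Within the 42 genes, those whose pattern over the 18 arrays was most like Eif4a1 were Eif4e (Pearson r = 0.991), Eif1ax (0.964) and Eif6 (0.964). Most like Eif4ebp1 were Eif2s2 (0.838), Eif5 (0.775) and Eif3a (0.757). The points share groups and normalization, so the coefficients are a description. For 28 of the genes the array holds further probe sets, of which 46 reached the floor. Among the 33 of these that belong to a gene called in the WT response, 1, of Eif2s2, had the opposite sign. The chosen probe sets of 8 genes (Eif2s3x, Eif2b2, Eif3c, Eif4h, Eif4ebp1, Eif3m, Eif4g2 and Eif5a) carry a suffix of the array maker that marks probes which can match related transcripts.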

How the data were processed

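RNA of 18 samples was measured on Affymetrix Mouse Genome 430A 2.0 arrays. The deposited values are on a log2 scale, 1 for every probe set, and the authors obtained them by GCRMA, per the submitters' processing notes; its version is not given in the sources used here. All 18 arrays hold the same sorted values (1.83 to 15.4, median 3.55), so arrays carry no depth, and 3 arrays a group limit the precision.

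The arrays hold 22690 probe sets, of which 64 controls, 1555 that name no gene and 691 that name more than 1 were not used. Each gene was represented by its probe set of highest mean, and 6873 genes at log2 4 or more on at least 3 arrays entered a limma fit (version 3.58.1, R 4.3.3) of 6 group means and 10 comparisons. It had 12 residual degrees of freedom and 2.22 from the prior. Tests were two-sided with Benjamini-Hochberg adjustment over all genes of a comparison. The threshold was 0.05. ± after a difference is the standard error. P-values measure the spread between samples, and folds are powers of the log2 difference.

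The genes, lists and comparisons were chosen with earlier results of these data known. Array values were given for the 8 largest rises and 6 largest falls in WT cells, genes called between genotypes, the 12 of smallest adjusted p between inhibitors, the 8 of smallest adjusted p for each inhibitor, all Eif2ak and Eif4ebp genes, Eif2s3x and Eif2s3y, and up to 4 genes a pathway list were named. Whether array numbers pair samples was checked by correlating equally numbered arrays' deviations from group means. All 3 correlations exceeded 0.1 for the knockout response (0.336, 0.266 and 0.238), knockout against WT at rest (0.645, 0.406 and 0.254) and stimulated (0.442, 0.384 and 0.148), and XCT790 (0.253, 0.15 and 0.172) and compound A (0.474, 0.398 and 0.287) against stimulated WT, from the data only; no label ties arrays to a day or an animal. The code was checked on simulated data. Figures used Python 3.11.15 and matplotlib 3.10.9.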

Additional observations from a re-analysis of the deposited data

Results flagged for a closer look

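The probe sets that match several genes were not part of the comparisons, and 4 of the 5 had a higher mean in stimulated than in resting WT cells. They are given as group means without a test. The 3 probe sets shared by Eif3j1 and Eif3j2, a loosely bound subunit of eIF3, were higher in stimulated than in resting WT cells by 1.38, 1.38 and 0.99 on the log2 scale, from means of 9.10, 7.62 and 10.67 (SD 0.02, 0.28 and 0.02, n = 3) to 10.48, 9.0 and 11.66 (SD 0.09, 0.15 and 0.05, n = 3). In knockout cells they went from 9.16, 7.45 and 10.65 to 10.34, 8.66 and 11.51. The means were 9.95, 8.02 and 11.23 with XCT790 and 9.94, 8.05 and 11.17 with compound A. The probe set shared by Eif4a3, the exon junction helicase, and Gm5576 was higher by 0.71, from 11.35 ± 0.04 (SD, n = 3) to 12.06 ± 0.04 (SD, n = 3), and read 11.37 and 11.97 in resting and stimulated knockout cells, 11.58 with XCT790 and 11.81 with compound A. The probe set shared by Eif1a and its copies read 2.06 to 2.07 in every group.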

How the results depend on the processing

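Settings tried were the array number as a replicate block, array weights (whose estimation stopped before full convergence), a trended and robust prior, fits of only the compared groups, genes as the mean of their probe sets, arrays shifted to a common median or 75th percentile, a floor of log2 6 or none, leaving out each array, and, added after seeing the data, arrays numbered 2 and 3 alone. Of 196 calls of single genes, 36 were lost under at least 1 of them, 29 of these on leaving out 1 array. For knockout against WT at rest, the 2 called genes became 6 with the mean of probe sets, 1 with the compared groups alone, 4 with the trended and robust prior, 12 with array weights, 7 with arrays 2 and 3 alone, and 1 to 3 on leaving out an array. For knockout against WT stimulated, the 0 became 2 with the mean of probe sets, 1 with the replicate block, 8 with array weights and 0 to 1 on leaving out an array. The 0 of the genotype by stimulation test became 4 with array weights and 1 with arrays 2 and 3 alone. Compound A against stimulated WT cells, 17 genes, gave 29 with array weights and 12 to 15 on leaving out an array. The cause was not tested. The other comparisons kept counts within 1.5 times. Values reversed for Eif3e in the knockout response (-0.00 with the mean of probe sets) and for Eif5 in the WT response (0.48 with the mean of probe sets), neither a stable call. With the pairing as a replicate block, Eif4e3 passed in stimulated knockout cells and Eif3c lost its call between the inhibitors (0.21, adjusted p = 0.0637 with limma); it changed no other call. Leaving out an array gave 30 to 32 genes for the WT response, 27 to 31 for the knockout response, 30 to 31 for XCT790 against stimulated WT, 19 to 24 between the inhibitors, and 24 to 28 and 30 to 31 for XCT790 and compound A against resting WT. Median array signals over the tested genes were 8.70 to 8.80.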

Other observations

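Some further probe sets of these genes differed from the chosen one between the untreated WT arrays and the others. A further probe set of Eif3a read 6.53, 6.65 and 5.70 on WT resting arrays and 10.20, 9.86 and 10.27 on knockout resting arrays. It read 8.88, 8.43 and 8.34 on WT stimulated arrays against 10.49 to 11.34 on knockout stimulated, XCT790 and compound A arrays. The chosen probe set of Eif3a did not pass between genotypes. The remaining probe sets of Eif3a differed by 0.16 and 0.28 between resting knockout and resting WT cells. Against stimulated WT cells they differed by -0.10 and 0.07 with XCT790 and by -0.07 and -0.14 with compound A. A second probe set of Eif5b read 6.73 to 7.02 on WT resting and 8.21 to 8.85 on knockout resting arrays, and 8.70 to 8.92 on WT stimulated against 9.64 to 10.15 on knockout stimulated and both inhibitors' arrays. Of the 88 probe sets of the 42 genes at the floor, 4 were higher by 0.5 or more in knockout resting against WT resting, XCT790 against stimulated and compound A against stimulated WT cells together (Eif3a, Eif5b, and probe sets of Eif3c and Eif4ebp2), or 4.55%, beside 330 of 10691 single-gene probe sets, or 3.09%. These groups are also the ones that differ in the dap control, and the part of either was not tested. The probe sets were chosen after their values were seen.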
